A study of Rattus norvegicus with 8 samples.

Results

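The genes described here are 10 markers of bile duct cells (cholangiocytes) and of liver progenitor cells: the keratin genes Krt7, Krt19, Krt8 and Krt18, the surface and secreted protein genes Epcam, Muc1, Prom1 and Spp1, the transcription factor gene Sox9, and Afp. They are the spots of the arrays whose gene name is one of these symbols, 16 probes of 10 genes among 35833 genes or names on the array. All samples were livers of male Wistar rats, measured with 1-colour Agilent arrays, 1 array per labelled rat. Of the 8 rats, 4 control rats were given maltodextrin at 3.0 g/kg body weight. The other 4 received structured lipids that contain butyrate (STL) by gavage at 1.65 g/kg body weight each day, a dose matched in energy. In both groups a resistant hepatocyte protocol of chemical liver carcinogenesis was started 2 weeks after the first dose, and livers were collected at 8 weeks, so that no group was free of carcinogenesis. The comparison asks which transcripts differed between livers with and without the structured lipids.

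Cholangiocytes line the bile ducts and contain keratin filaments, each of which is built from a type I keratin (such as keratins 18 and 19) and a type II keratin (such as keratins 7 and 8). Hepatocytes normally make keratins 8 and 18 only, while cholangiocytes add keratins 7 and 19. In the rat, carcinogenic injury that blocks hepatocyte division brings out oval cells, small progenitor cells near the portal tracts that share markers with bile ducts and with fetal liver, and several of these markers can also be switched on in preneoplastic or tumour cells.

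What an array measures is the binding of labelled RNA to a 60-base probe. The probes of 5 members are shown because the comparisons below rest on them or, for Krt18, because the place the files give it bears on how it can be read. They are given 5′ to 3′ in lower case, with no part marked.
Krt19, A_44_P991819: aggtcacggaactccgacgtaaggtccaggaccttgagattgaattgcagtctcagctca
Krt8, A_42_P784063: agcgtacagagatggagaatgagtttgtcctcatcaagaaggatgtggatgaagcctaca
Krt18, A_44_P1091902: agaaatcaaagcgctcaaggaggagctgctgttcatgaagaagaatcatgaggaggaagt
Muc1, A_44_P229118: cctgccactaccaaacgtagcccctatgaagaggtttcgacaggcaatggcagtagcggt
Epcam, A_44_P163242: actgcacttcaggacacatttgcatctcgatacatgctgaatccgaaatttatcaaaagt
By the coordinates in the files (rn4), the Krt19 probe lies on the minus strand at chr10:89081437-89081496. The Krt8 probe spans 983 bases on the minus strand at chr7:140716967-140717949, the Epcam probe 784 bases at chr6:11181855-11182638 and the Muc1 probe 1299 bases at chr2:181402014-181403312. Since each of these 3 probes is 60 bases long, its genomic interval includes sequence that the probe lacks. The files place the Krt18 probe shown at chr2:80043817-80043876, whereas RefSeq (GRCr8) has the Krt18 gene on chromosome 7. The other Krt18 probe has no position in the files. Whether RNA of processed copies of Krt18 elsewhere in the genome adds to either probe was not tested, so Krt18 values are uncertain in that respect. The brightest Krt7 and Krt18 probes and the Prom1 probe hold the letters AATAAA or ATTAAA of a polyadenylation signal.

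Signals are given as the processed signal divided by the 75th percentile of the array, times 1000, and differences as log2 differences, STL minus control. That percentile lay between 304 and 605 before scaling. The share of probes with a signal well above background ranged from 54.2% to 62.9% over the arrays. Control 1 and control 2 differed by 1.04 times the noise between repeated spots, against 2.13 to 7.45 times in the other 27 pairs of arrays. They were averaged and counted as 1 sample, which leaves 3 control and 4 STL samples. Control 4 was high in many of these markers. It was the highest control sample in 10 of the 10 members and the highest of all 7 samples in 8. How often control 4 was highest among all genes was not counted. Over repeated spots of all genes it differed from the other arrays by 3.77 to 7.45 times the noise. In Afp (24788 against 24343 and 24500) and Prom1 (3268 against 2763 in control 3) it lay near another control sample. The differences of the markers are therefore given with and without it. All 14 hepatocyte genes on the list that had a probe passed the filter on dim probes.

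Keratin 19 and mucin 1 had the largest log2 differences of the members, -1.48 and -1.44, both towards lower signal in the STL livers. By the brightest probe of each gene, keratin 18, Sox9 and alpha-fetoprotein had differences close to 0, but other Sox9 probes were at -1.48 and -0.14. The order depended on the setting. With normexp background correction Muc1 was at -0.56, smaller than Krt19, Prom1, Spp1, Epcam and Krt8, and without control 3 Spp1 had the largest difference, -1.87. No member passed the test. Over 21693 genes tested, 1 gene, Cish, had an adjusted p under 0.05 (limma with Benjamini-Hochberg adjustment), which is 0.00461%, and 0 of the 10 members did. At an unadjusted p under 0.05, 5 of 10 members were lower in STL (Krt19, Muc1, Prom1, Krt8 and Epcam) and 0 were higher, while 7.41% of all genes were lower at that level. Higher at that level were 2509 of the 21693 genes. The direction was lower in 8 of 10 members, Afp among them at only -0.02 (SE 0.13). The median log2 difference of the 10 was -1.01, beside 0.06 for all genes tested, of which 41.9% were lower. Without control 4 the median was -0.47 and 8 of 10 were still lower, again with Afp at -0.02. Only Krt19 and Muc1 then had an unadjusted p under 0.05 among the members, 2 of 10, against 5.38% of genes lower at that level. The number of genes past the adjusted threshold was 45 without STL 6 and 3 without control 3. In whole liver RNA, fewer cells of a type and less RNA per cell cannot be told apart.

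**Figure D1:**
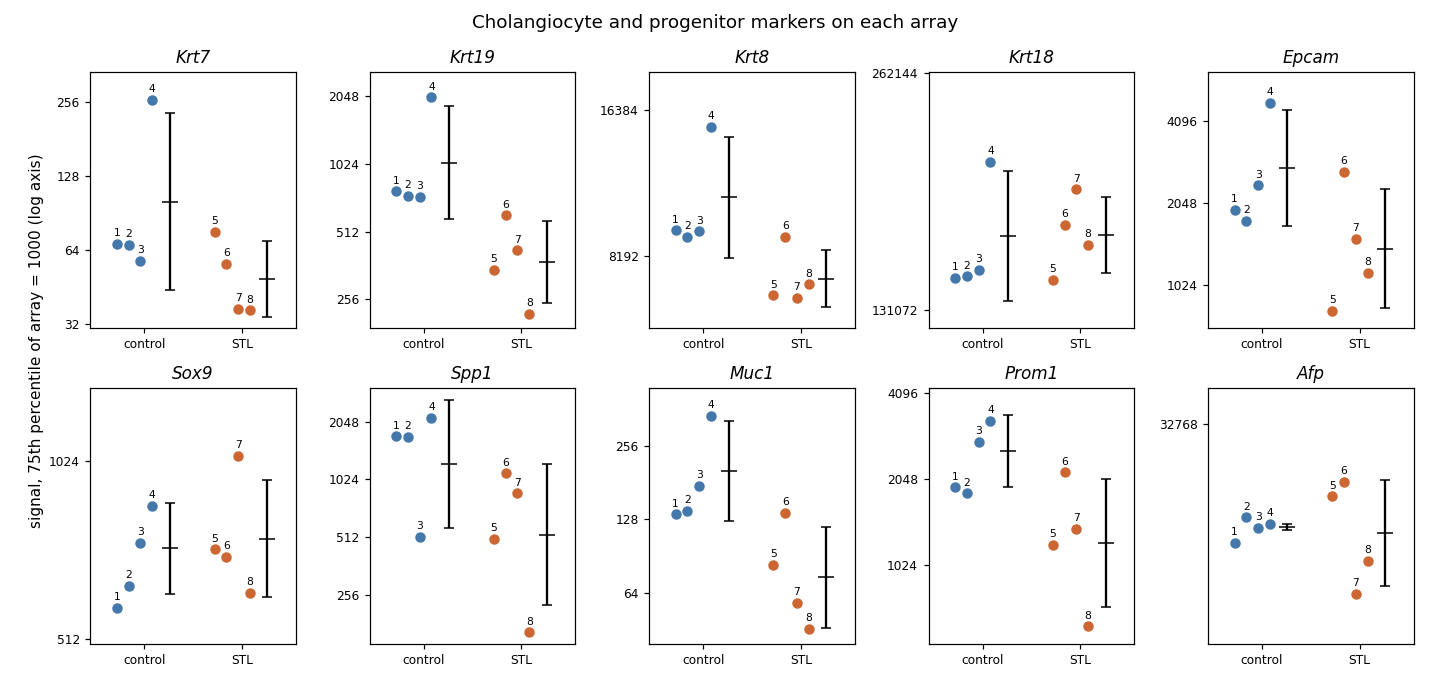
Signal of each marker on each of the 8 arrays, on a log axis with the 75th percentile of an array at 1000, where numbers are the labels of the rats and bars show the mean and SD of log2 signals over 3 control samples (1 and 2 averaged) and 4 STL samples. Control 4 was the highest control array in every panel except that of Afp, where control 2 was. All 4 STL arrays lay below every control array only for Krt19, and the share of all genes that did so was not counted.

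Krt19 encodes the type I keratin of bile ducts. Its signal was 774, 741, 732 and 2027 in control 1 to 4, and 347, 604, 422 and 220 in STL 5 to 8. All 4 STL arrays lay below the lowest control array, with STL 6 nearest to the controls. On the log2 scale, with the 75th percentile at 0, control livers averaged 0.06 ± 0.83 (SD, n = 3) and STL livers -1.42 ± 0.61 (SD, n = 4). They thus differed by -1.48 (SE 0.42, 95% interval -2.44 to -0.51), which is 2.78-fold, with a limma adjusted p of 0.178. Among the controls, 1 to 3 lay close together and control 4 far above them. Without control 4 the difference was -0.99 (adjusted p = 0.332), and every STL sample was still below both remaining control samples. Over 20 alternative settings the difference lay between -1.73 and -0.99 and the adjusted p between 0.0547 and 0.363.

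Krt7, the type II keratin of bile ducts, was dim. Its brightest probe gave 68, 67.5, 57.8 and 260 in control 1 to 4, and 75.8, 56.4, 37 and 36.5 in STL 5 to 8. It was well above background on all 4 control arrays but on 2 of 4 STL arrays, STL 5 and STL 6, and STL 5 lay above 3 of the 4 control arrays. The log2 difference was -1.04 (SE 0.53, limma adjusted p = 0.313), and -0.35 without control 4. It was -0.17 with normexp and -0.45 with the probes averaged, so its size depended on how background was handled and on the probes used. Of the other Krt7 probes, A_64_P048043 was well above background on 3 of 8 arrays and A_44_P1156582 on 0 of 8, so neither was tested.

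Krt8 is the type II keratin that hepatocytes and cholangiocytes share. The signal was 9255, 8961, 9207 and 15112 in control 1 to 4, and 6798, 8961, 6707 and 7157 in STL 5 to 8. STL 6 was level with control 2, and the other 3 STL arrays were below every control array. The difference was -0.56 (SE 0.20, 95% interval -1.01 to -0.11), with a limma adjusted p of 0.206, and it was -0.32 without control 4.

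Krt18 encodes the partner of keratin 8 in the same filaments. Its brightest probe, with 10 spots per array, read 143906, 144578, 147367 and 202132 in control 1 to 4, and 143079, 167922, 186445 and 158466 in STL 5 to 8. The groups overlapped, and apart from control 4 the STL livers were mostly the brighter ones. The difference was 0.01 (SE 0.16, 95% interval -0.36 to 0.37). By the probe shown above it was -0.26 (SE 0.16), so that the direction of Krt18 depended on the probe, and it also turned with quantile normalization (-0.21), median scaling (-0.039) and normexp (-0.031). No spot of any array was saturated. RefSeq lists Krt8 and Krt18 on the same chromosome with 1 gene between them, and 0 of the genes between code for protein.

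The keratins that mark bile ducts were also set against those that hepatocytes make too. For each sample the mean centred log2 signal of Krt8 and Krt18 was subtracted from that of Krt7 and Krt19, a contrast chosen with the earlier results known. It was 0.26 in the averaged control 1 and 2, 0.09 in control 3 and 1.33 in control 4, and -0.01, -0.14, -0.57 and -0.97 in STL 5 to 8. All 4 STL samples were below all 3 control samples, by a mean of -0.98, and by -0.60 without control 4. No test is given, since the genes were chosen for this pattern, and Krt7 was near background in STL 7 and STL 8. STL 5 and control 3 were the nearest values of the groups.

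**Figure D2:**
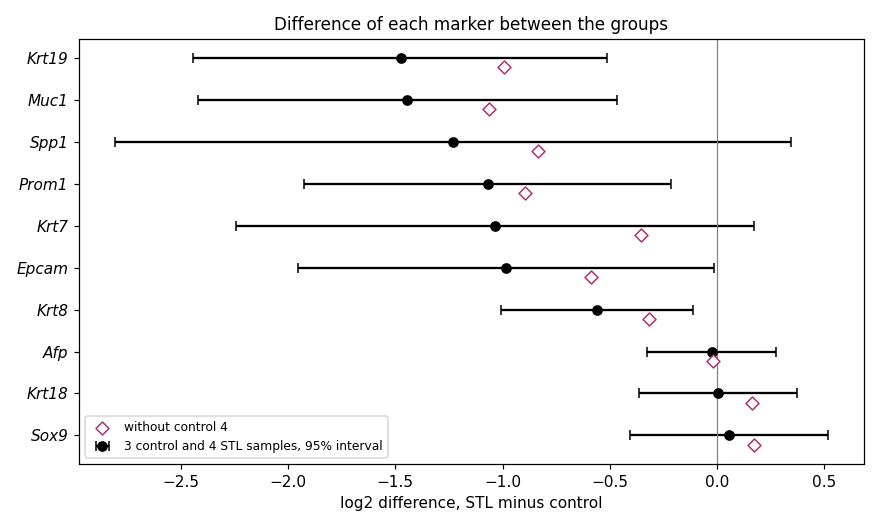
Log2 difference of each marker, STL minus control, with the 95% interval of the limma fit (black) and the difference without control 4 (open diamonds). All 7 markers from Krt19 to Krt8 lay nearer to 0 without control 4, at -0.35 for Krt7 and -0.99 for Krt19, and the intervals of Spp1, Krt7, Afp, Krt18 and Sox9 include 0.

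Among the surface and secreted proteins, Muc1 codes for a mucin of the apical membrane of duct epithelium. The signal of Muc1 was 134, 139, 176 and 340 in control 1 to 4, and 83.3, 136, 58.3 and 45.4 in STL 5 to 8. STL 6 fell between control 1 and control 2, and the other STL arrays were below all controls, so the groups were apart only by the average of control 1 and 2, at 137. Its difference was -1.44 (SE 0.43, 95% interval -2.42 to -0.47) or 2.72-fold, with a limma adjusted p of 0.178, and -1.06 without control 4. With array weights, under which 7.35% of all genes passed the threshold, Muc1 was the 1 member of 10 that did (difference -1.45, limma adjusted p = 0.0493). Over the 20 alternatives the difference lay between -1.74 and -0.56, the latter with normexp, and the adjusted p between 0.0493 and 0.363.

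Prom1 encodes prominin 1 (CD133), a membrane protein of ducts and of liver progenitor cells. Its signal was 1913, 1824, 2763 and 3268 in control 1 to 4, and 1207, 2159, 1369 and 626 in STL 5 to 8. STL 6 was above control 1 and control 2, and the other 3 STL livers were below all controls. The difference was -1.07 (SE 0.38, 95% interval -1.93 to -0.21) with a limma adjusted p of 0.205, and -0.89 without control 4.

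Epcam codes for the epithelial cell adhesion molecule, which cholangiocytes and oval cells carry and mature hepatocytes lack. The values were 1934, 1769, 2386 and 4785 in control 1 to 4, and 823, 2678, 1513 and 1140 in STL 5 to 8. Here too STL 6 lay inside the control range and the other 3 STL arrays below it. The difference was -0.98 (SE 0.43, 95% interval -1.96 to -0.01), with a limma adjusted p of 0.258, and -0.59 without control 4.

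Spp1 encodes osteopontin, a secreted glycoprotein of duct cells that macrophages can also make. The signal was 1721, 1714, 514 and 2147 in control 1 to 4, and 500, 1100, 865 and 163 in STL 5 to 8. Control 3 was within the STL range and STL 8 was the lowest of all arrays. The spread within each group, with SDs of 1.11 and 1.23 on the log2 scale, was nearly as wide as the difference of -1.23 (SE 0.69, 95% interval -2.81 to 0.35, limma adjusted p = 0.351). The difference was -1.87 without control 3, -0.83 without control 4 and -0.67 without STL 8.

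For Krt19, Krt8 and Muc1 every STL sample lay below all 3 control samples, which is 3 of 10 members, where 5.63% of all genes tested did so. Without control 4 the same 3 of 10 lay below both remaining controls, against 9.97% of genes. By single arrays the groups were apart for Krt19 alone, and the share of all genes apart by single arrays was not counted.

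Sox9 is a transcription factor that cholangiocytes and progenitor cells need, and its 4 probes did not go the same way. By the brightest probe, A_64_P033298, the signal was 579, 630, 746 and 860 in control 1 to 4, and 727, 706, 1045 and 614 in STL 5 to 8, with wide overlap. That difference was 0.06 (SE 0.20, 95% interval -0.41 to 0.52). The most downstream probe, A_44_P221245, gave 305, 276, 292 and 835 in control 1 to 4, and 111, 350, 182 and 67.3 in STL 5 to 8. There control 4 was again the highest and STL 6 lay above 3 of the 4 control arrays. The difference by that probe was -1.48 (SE 0.57), and 0 of the tested member probes passed in the fit over 27002 probes, where 0.0037% did (limma adjusted p = 0.236 for this probe). Without control 4 it was at -0.98. By A_44_P1157392 the difference was -0.14 (SE 0.23), and A_43_P16049 was well above background on 3 of 8 arrays and was not tested.

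In rn4 these probes lie on the plus strand of chromosome 10, and the downstream one, at chr10:102389659-102389718, starts 2487 bases after the first and 671 bases after its neighbour. Its share of G and C was 23.3%, against 56.7% to 60% in the other 3. The centred log2 ratio of the downstream to the brightest probe was 0.64, 0.34 and 1.65 in the control samples (1 and 2 averaged, 3, 4) and -1.01, 0.68, -0.82 and -1.49 in STL 5 to 8. STL 6 lay inside the control range and the other STL samples below it. The difference of this ratio was -1.54, and -1.15 without control 4, with overlapping groups. What the probes detect, whether transcript ends or other RNA, was not tested.

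**Figure D3:**
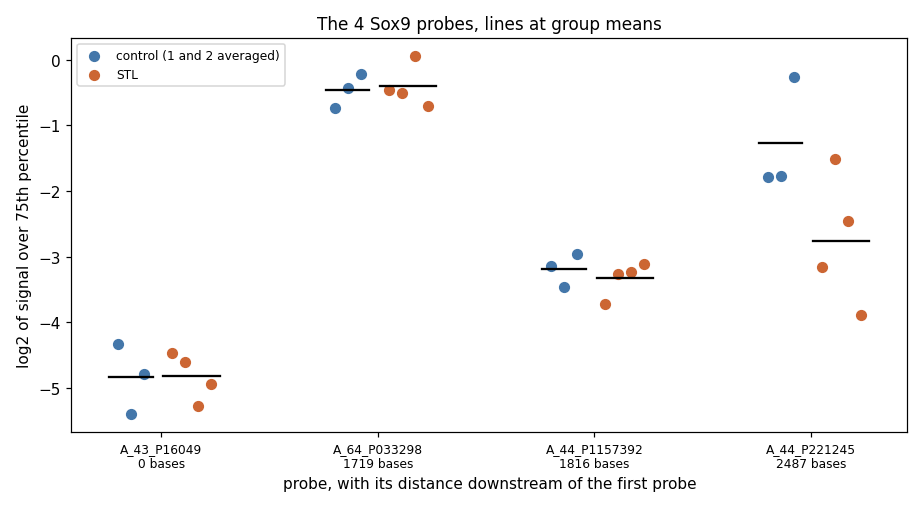
Log2 signal of the 4 Sox9 probes, ordered along the genome (rn4) with the genomic distance of each from the first in bases, for 3 control samples (1 and 2 averaged) and 4 STL samples, with lines at the group means. By the probe at 2487 bases the means differ by -1.48, and by the brightest probe, at 1719 bases, by 0.06.

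Afp encodes alpha-fetoprotein, the main serum protein of the fetal liver, which some progenitor and tumour cells make again. The signal was 23490, 25226, 24500 and 24788 in control 1 to 4, and 26753, 27849, 20374 and 22332 in STL 5 to 8. The control arrays lay inside the STL range. The difference was -0.02 (SE 0.13, 95% interval -0.32 to 0.28, limma adjusted p = 0.933). Control 4, the brightest array for the duct keratins, was not apart from the other controls in Afp.

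Other lists of duct and progenitor genes held genes of both directions. Of 23 further cholangiocyte markers tested, out of 25, 15 were lower and 8 higher, with a median difference of -0.33 beside 0.06 over all genes, and 0 passed the adjusted threshold. At an unadjusted p under 0.05, 5 were lower and 4 higher, while of all 21693 genes tested 1607 were lower and 2509 higher. Cldn7, a claudin of epithelial tight junctions, was at -2.13 (SE 0.76, well above background on 2 of 4 STL arrays) and Ezr, the microvillus protein ezrin, at -0.81, whereas Onecut1, a transcription factor of both hepatocytes and ducts, was at 1.51 (limma adjusted p = 0.208, 0.196 and 0.191). Without control 4 Cldn7 was at -1.36 and Ezr at -0.46. Of 16 further oval cell and fetal liver genes tested, out of 22, 8 were lower and 8 higher, with a median of -0.01 (0.00 without control 4) and 0 past the threshold. Tnfrsf12a, the receptor of the oval cell mitogen TWEAK, was at -1.17 (SE 0.17, adjusted p = 0.106) and Dlk1, a fetal hepatoblast protein, at 0.68 (SE 0.24, adjusted p = 0.205). By sample, the median of the further cholangiocyte markers, centred over the 7 samples, reached 0.52 in control 4 and stayed between -0.33 and 0.12 in the other 6. Without control 4, 15 of 23 were lower and the median was -0.19.

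Some other gene lists were high or low in the same samples as the markers, and others were not. The centred median of the 10 markers was 0.05 in the averaged control 1 and 2, also 0.05 in control 3, and 1.16 in control 4. In STL 5 to 8 it was -0.40, 0.13, -0.30 and -0.79. STL 6 was the highest STL sample in 7 of 10 members and STL 8 the lowest in 6. For genes of preneoplastic foci, the early clones of altered hepatocytes, the same measure gave 0.24, 0.72 and 1.95 in these control samples, and -1.12, 0.68, -0.67 and -1.20 in STL 5 to 8. Control 4 was the highest sample and STL 6 the highest STL sample in both lists. The same order was seen for the further cholangiocyte markers (0.52 in control 4, 0.04 in STL 6). It was also seen for stellate cell and portal fibroblast genes (0.70 and 0.0009) and for osteopontin receptor and protease genes (0.18 and -0.0002). Of 13 preneoplastic genes tested 12 were lower in STL, with a median of -1.75 and 0 past the threshold, and Gstp1, the classical marker of these foci in the rat, was at -3.31 (SE 0.91, limma adjusted p = 0.178). Their summed signal lay between 184398 and 560709 in the control samples and between 65234 and 273841 in STL. Without control 4 the median of this list was -1.28, with 10 of 13 lower.

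Stellate cell and portal fibroblast genes were lower in 11 of 13, with a median of -0.50 and 0 past the threshold. Their summed signal lay between 53793 and 109181 in the controls and between 35624 and 51025 in STL. The collagen gene Col1a2 was at -0.90 (adjusted p = 0.178). Without control 4 the median of these genes was -0.26. Their sums did not overlap between the groups, and separation of sums was not particular to this list. Those of cell division genes (28595 to 39535 in controls, 21318 to 26644 in STL) did not overlap either. The same held for osteopontin receptor and protease genes (31336 to 39025 in controls, 25722 to 30601 in STL). In those sums the integrin gene Itgb1 alone gave 19664 to 24314 in controls and 15588 to 18888 in STL. Of 14 hepatocyte genes 13 were higher, with a median of 0.37 (0.20 without control 4) and 0 past the threshold, and the centred median was -0.55 in control 4 and 0.60 in STL 7, between which the other samples lay. The summed hepatocyte signal was between 2986817 and 4392169 in the controls and between 4253097 and 6136825 in STL. Of the mesothelial genes, which mark the liver's surface layer and whose cells also make Krt19, 6 of 9 were tested, Wt1 was below the filter, and 4 of the 6 were lower, with a median of -0.46 (-0.06 without control 4). Their centred median was 1.08 in control 4 and between -0.27 and -0.06 in the others, and their summed signal was between 3040 and 5776 in the controls and between 2309 and 3757 in STL. Upk1b, a uroplakin gene from that list, did not reach well above background in any of the 4 STL livers. With dimmer STL values raised to the lowest well-above-background signal of their array, its mean was at least 2.23-fold lower there. The limma adjusted p of 0.164 came from the fit without this floor. Upk1b passed the filter on dim probes through the control arrays alone. Cell division genes were lower in 13 of 14, with a median of -1.28 (-0.91 without control 4) and 0 past the threshold, but were high in both control 3 and control 4, at 1.39 and 1.23. Macrophage genes were lower in 11 of 14 with a median of -0.13 (-0.26 without control 4). Their centred median was 0.06 in control 4, highest in STL 5 (0.21) and lowest in STL 6 (-0.23), unlike that of the markers. Endothelial genes were lower in 5 of 10, with a centred median of -0.004 in control 4. Lymphocyte and plasma cell genes were higher in 9 of 10, with a centred median of -0.39 in control 4. The part of any of these lists in the marker differences was not tested.

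**Figure D4:**
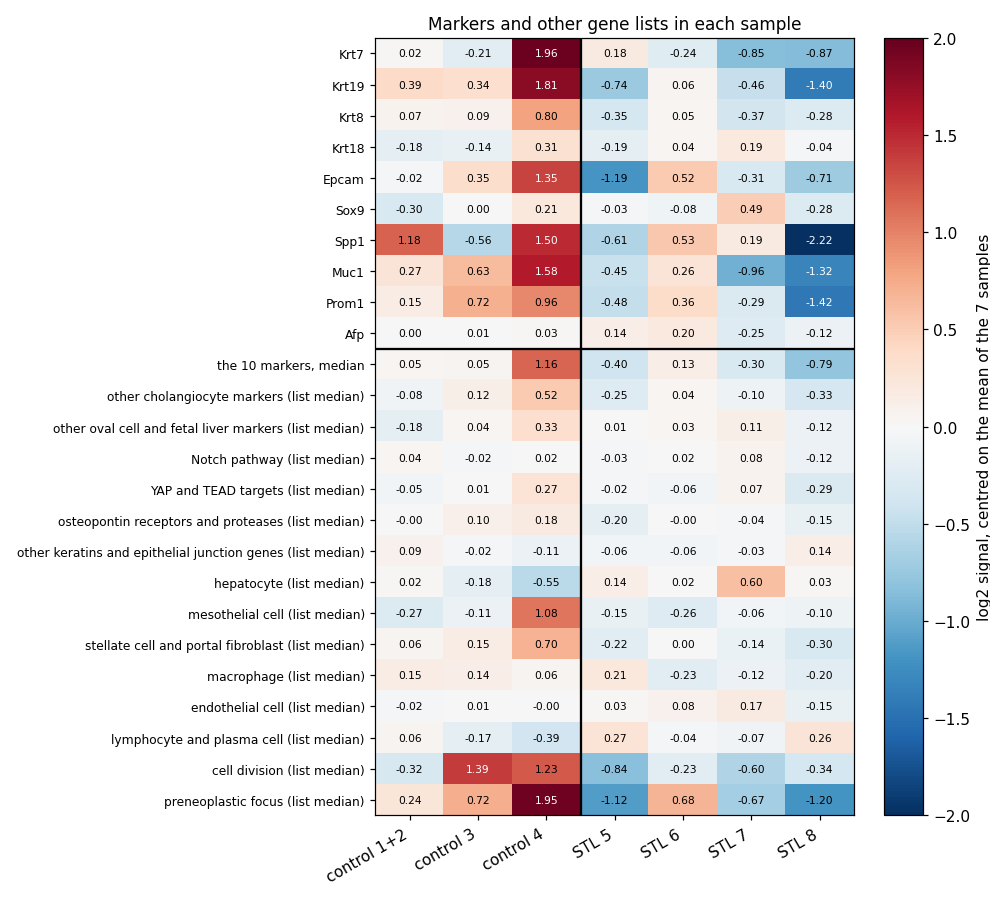
Log2 signal centred on the mean of the 7 samples, for each marker (upper rows) and as the median of each gene list (lower rows), in 3 control samples (1 and 2 averaged) and 4 STL samples, with red above and blue below the mean. Control 4 is at 1.16 for the median of the 10 markers and at 1.95 for preneoplastic focus genes, while Afp lies between -0.25 and 0.20 in every sample.

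The profiles most like 3 of the members over the 7 samples were found by the root mean square difference of centred log2 signals. For Krt19, whose own SD over the samples was 1.02, they were Cryab, a small heat shock protein gene, at 0.15 and Cdh3, P-cadherin, at 0.18. The nearest to Spp1 were Ildr1, a tricellular junction gene, at 0.38 and Cxadrl1 at 0.49. For Afp, with an SD of 0.15, the nearest named gene was Fto, at 0.03. These genes were picked as the nearest among all genes tested, so small values follow in part from that selection.

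The promoter windows in the RefSeq table (GRCr8), 250 bases before to 50 after the start, matched 7 of the 10 members. The windows of Muc1, whose signal differed most among these 7, and of the keratin partners Krt8 and Krt18, whose log2 differences were -0.56 and 0.01, are shown 5′ to 3′. Capitals mark exact matches, on either strand, to the core letters of a TATA box (TATAAA), a GC box (GGGCGG), an AP-1 site (TGACTCA), an HNF1 site (GTTAAT), a TEAD site (GGAATG) or an RBPJ site (TGGGAA).
Muc1, chr2:176933500-176933799, plus strand: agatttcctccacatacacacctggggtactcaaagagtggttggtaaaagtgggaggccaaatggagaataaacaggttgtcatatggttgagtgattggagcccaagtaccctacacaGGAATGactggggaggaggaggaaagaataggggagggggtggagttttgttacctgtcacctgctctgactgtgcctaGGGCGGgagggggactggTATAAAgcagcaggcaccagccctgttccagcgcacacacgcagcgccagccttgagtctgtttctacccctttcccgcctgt
Krt8, chr7:135010290-135010589, minus strand: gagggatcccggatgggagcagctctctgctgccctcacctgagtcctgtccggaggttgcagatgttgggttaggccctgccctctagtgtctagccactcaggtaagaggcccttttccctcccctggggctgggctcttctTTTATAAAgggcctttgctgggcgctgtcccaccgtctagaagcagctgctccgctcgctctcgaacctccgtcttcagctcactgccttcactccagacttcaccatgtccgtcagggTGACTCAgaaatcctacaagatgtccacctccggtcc
Krt18, chr7:135035918-135036217, plus strand: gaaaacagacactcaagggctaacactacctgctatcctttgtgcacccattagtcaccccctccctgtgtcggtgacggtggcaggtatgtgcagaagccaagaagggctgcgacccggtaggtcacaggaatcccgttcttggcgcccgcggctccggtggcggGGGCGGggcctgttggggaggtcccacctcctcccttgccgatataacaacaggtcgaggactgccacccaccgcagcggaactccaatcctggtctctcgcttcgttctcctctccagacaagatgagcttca
TATAAA stood in 4 of the 7 windows (Krt8, Spp1, Muc1 and Afp), against 14.2% of 33469 promoters. Counted from the start, it begins at -33 in Muc1, and in Krt8 overlapping matches begin at -106 on the minus strand and at -104 on the plus strand of the gene. Krt18 has no TATAAA in this window and 1 GGGCGG, which stood in 4 of 7 (Krt18, Epcam, Muc1 and Prom1) and in 33.1% of all. TGACTCA was in Krt8 and Epcam (4.63% of all), GTTAAT in Spp1 and Afp (7.45%), GGAATG in Muc1 (14.2%) and TGGGAA in 0 of 7 (25.7%). These matches describe letters and no binding was measured.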

How the data were processed

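Cy3-labelled RNA was hybridised to 8 arrays of 1 slide. The deposited scanner files hold the intensity of each spot, made by the authors with Agilent Feature Extraction (version 11.5.1.1 per the file headers, 10.7 per the submitters' processing notes), background-subtracted and not scaled between arrays. The authors' series table, also intensity, equals these signals times a constant per array. Of its 8 columns, 6 hold values of a different array from the one labelled, always within the group, and 0 those of the other group. Non-uniform and outlier spots were dropped, spots of a probe averaged, and log2 signal minus the array's 75th percentile taken. Probes took RefSeq names by accession (23845), symbol (5129) or synonym (352), and 16272 kept the file's name. The brightest probe stood for a gene. The test took genes that reached well above background on 4 or more of 8 arrays. It used limma 3.58.1 in R 4.3.3 (intensity trend, two-sided, Benjamini-Hochberg over 21693 genes, threshold 0.05). Its mean estimates were checked on simulated data, and the share of simulated differences that it called is not given here. Arrays under 1.5 times spot noise apart were averaged. Alternatives were 20: scaling, background correction, filters, probe choice, names, blocks, weights, the authors' table and samples left out. The members and gene lists were chosen with earlier results of these data known. Named besides members are at most 3 genes per list, by smallest unadjusted p, and the 2 nearest profiles of Krt19, Spp1 and Afp. The number of arrays limits precision.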

Additional observations from a re-analysis of the deposited data

How the results depend on the processing

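The direction and side of the threshold held in all 20 alternatives for Krt19, Krt8, Epcam, Spp1 and Prom1, in 19 of 19 for Krt7, which the filter on all 8 arrays removed, and for Muc1 in 19 of 20, where array weights brought it past the threshold. The median difference of the 10 markers lay between -1.20 and -0.47, a range set by samples left out (without STL 6 and without control 4). The number of genes past the threshold was 21 with each of the 8 arrays as a sample, 10 with the authors' table, 1594 with array weights and 214 with control 1 and 2 both left out, and between 1 and 45 with 1 sample left out. The cause of these differences was not tested. Differences near 0 turned sign. Krt18 was at -0.21 with quantile normalization, -0.039 with median scaling, -0.031 with normexp, -0.13 with its probes averaged and -0.080 without control 1 and 2, and between -0.065 and 0.16 with 1 sample left out. Sox9 was at -0.39 with its probes averaged, -0.051 with array weights and -0.080 without control 1 and 2, and between -0.099 and 0.18 with 1 sample left out. Afp was between -0.093 and 0.057 with 1 sample left out. Slide column as a block over 8 arrays left 1 gene past the threshold. Krt7 was near background in STL, which limits its value.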

Other observations

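Genes of epithelial junctions and of other keratins showed no common direction, with 8 of 17 tested lower in STL, a median log2 difference of 0.02 and 0 past the adjusted threshold (limma). Tjp1, the tight junction scaffold ZO-1, was at -0.46, the tight junction protein gene Ocln at -0.52 and the desmosomal gene Pkp2 at -0.41 (adjusted p = 0.172, 0.178 and 0.178). These are the 3 lower at an unadjusted p under 0.05, and 3 were higher at that level, named here after their values were seen: Cdh1, which codes for E-cadherin, at 0.48, the claudin gene Cldn3 at 0.48 and the desmoglein gene Dsg2 at 0.30. Of all 21693 genes tested, 1607 were lower and 2509 higher at that level. In the Notch pathway, which specifies bile duct cells, 9 of 16 were lower with a median of -0.06 and 0 past the threshold. Sox4, a factor that acts with Sox9 in duct formation, was at -1.43 (SE 0.38, adjusted p = 0.174), with 8125 in control 4 against 2661 to 3447 in the other control samples and 1172 to 2436 in STL, and at -0.96 without control 4, while Hes6 was at 0.79. Of 12 genes of the YAP and TEAD list 7 were lower, with Yap1 itself at 0.40 (adjusted p = 0.195). Of 10 genes for osteopontin receptors and proteases 7 were lower, with Cd44 at -0.80 (-0.35 without control 4) and the integrin gene Itgb1 at -0.32. Without control 4 the list medians were -0.07 for junction genes, 0.00 for the Notch pathway, -0.14 for YAP and TEAD and -0.29 for osteopontin receptors and proteases, against -0.27 and -0.24 with it for the last 2.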
